A study of Mus musculus with 6 samples.

Results

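The small leucine-rich proteoglycans are secreted matrix proteins, and 10 genes of this family were followed among the 19938 genes measured: Dcn, Lum, Kera and Epyc, which lie side by side on mouse chromosome 10, Aspn, Omd and Ogn, which lie side by side on chromosome 13, and Bgn, Fmod and Prelp at other loci. Each gene was read from the probe set annotated to its symbol alone, and each of the 10 had 1 such probe set. The family and its division into gene clusters were proposed from the same comparison of SmoM2 with wild type that is given here, so the values of these genes are a description without a test. RNA came from whole stomachs of mouse embryos at E13.5, with 3 arrays labelled Nkx3.2Cre;R26-SmoM2 (SmoM2 below) and 3 labelled wild type. SmoM2 is a form of the hedgehog transducer Smoothened that signals without ligand, carried at the Rosa26 locus, and the Cre that switches it on follows Nkx3-2, which is active in mesenchyme of this organ. The labels name no allele or transgene for the wild type embryos, and they do not say whether an array holds 1 embryo or a pool, so the replicate spread may be partly technical. In whole tissue, fewer cells of a type and less RNA per cell cannot be told apart.

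These proteins share a core of leucine-rich repeats that binds collagen, and most carry chains of chondroitin, dermatan or keratan sulphate. In connective tissue they set the spacing and thickness of collagen fibrils and hold growth factors of the TGF-beta family in the matrix. They are commonly sorted by sequence into classes, with Dcn, Bgn and Aspn in class I, Lum, Kera, Fmod, Prelp and Omd in class II, and Epyc and Ogn in class III. In the gut they are products of the mesenchyme.

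The values are log2 signals after RMA, the array normalization named in the submitters' processing notes, and the array medians ran from 8.56 to 8.62. All pairs of arrays correlated at 0.990 to 0.997 over the genes. The lowest value was between SmoM2 1 and wild type 2 and the highest between wild type 1 and wild type 2. Pairs between and within groups still covered overlapping ranges, as SmoM2 2 had 0.9964 with wild type 2 and 0.9936 with SmoM2 1. Hhip, a hedgehog-binding protein induced by the pathway, was 1.28 higher in SmoM2 on the log2 scale (SE 0.07, limma adjusted p = 0.000175) and the receptor gene Ptch1 0.48 higher (SE 0.07, adjusted p = 0.0174). Gli1, a transcription factor of the pathway, differed by 0.42 (SE 0.09, adjusted p = 0.0727). The sex-linked signals were uneven. Xist, the transcript that silences an X chromosome in females, stood at 11.93, 12.37 and 11.43 in the SmoM2 arrays, against 7.11, 11.94 and 11.68 in the wild type arrays, and the Y-linked gene Uty at 8.77, 8.93 and 9.24 in SmoM2, against 10.43, 9.75 and 9.37 in wild type. Eif2s3y stood at 8.58, 8.95 and 9.19 in SmoM2, against 10.40, 10.09 and 8.81 in wild type, and Kdm5d at 8.77, 8.95 and 9.38 in SmoM2, against 10.29, 9.91 and 9.03 in wild type. The deviations of arrays from their group means were also correlated between SmoM2 2 and wild type 2 (r = 0.52) and between SmoM2 1 and wild type 3 (r = 0.52), a value across genes for which the labels name no source. For SmoM2 2 with wild type 3 the value was -0.60, and for SmoM2 1 with wild type 2 it was -0.50.

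Epyc, Lum and Ogn were higher in all SmoM2 arrays than in any wild type array, by 1.10, 0.92 and 0.70 on the log2 scale, which is 2.14-fold, 1.89-fold and 1.62-fold. Dcn, the neighbour of Lum, differed by 0.00, and Bgn by -0.06. In the fit over all genes these 3 of 10 members were past an adjusted p of 0.05 (limma, Benjamini-Hochberg) with SmoM2 higher, where 0.326% of all genes were, and 0 were past it with SmoM2 lower, where 0.657% of all genes were. Groups without overlap and with SmoM2 higher were found for the same 3 genes, against 5.64% of all genes, and with SmoM2 lower for 1, Fmod, against 10.1%. The genes were chosen from this comparison, and nothing is read from these counts.

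**Figure D1:**
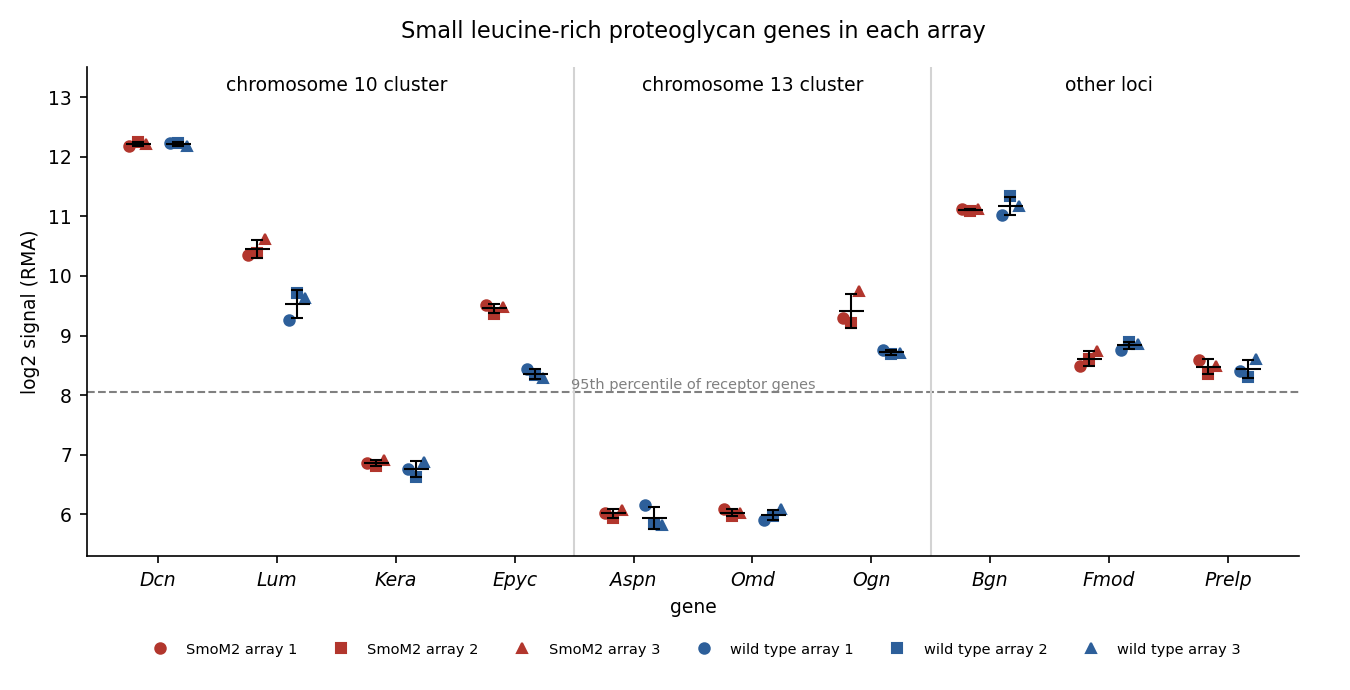
Log2 signal of each of the 10 genes (horizontal axis) in each array (vertical axis, RMA log2 signal), with SmoM2 arrays in red on the left and wild type arrays in blue on the right; bars are mean and SD of 3 arrays, and the dashed line is the 95th percentile of the mean signal of 1194 olfactory and vomeronasal receptor genes. Lum, Epyc and Ogn have all red points above all blue points, and Kera, Aspn and Omd lie below the dashed line in both groups.

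A level that marks dim probe sets came from 1194 olfactory and vomeronasal receptor genes, which code for receptors of sensory neurons. The 95th percentile of their mean signal was 8.05. Kera, Aspn and Omd lay below it, so their probe sets gave no signal above that of such genes. The other 7 members lay above it in their mean over the 6 arrays. Read by array, the 95th percentile of the receptor genes was highest in SmoM2 1 (8.25) and wild type 3 (8.14) within their groups. It was lowest in SmoM2 2 (7.96) and wild type 2 (7.93). These are the same pairs of arrays whose deviations were positively correlated, and a link was not tested.

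In the chromosome 10 cluster, Dcn encodes decorin, which binds collagen fibrils and TGF-beta. Dcn had 12.18, 12.24 and 12.22 in the SmoM2 arrays, against 12.23, 12.23 and 12.18 in the wild type arrays. The groups covered the same range, and the difference was 0.00 with an SE of 0.06. Lum encodes lumican, a keratan sulphate proteoglycan that binds collagen fibrils. Lum had 10.35, 10.38 and 10.63 in SmoM2, against 9.27, 9.71 and 9.62 in wild type. Its lowest SmoM2 value lay above its highest wild type value, wild type 1 was the lowest array and SmoM2 3 the highest, and the difference was 0.92 with an SE of 0.12. Kera encodes keratocan, best known from the cornea. Kera averaged 6.87 ± 0.05 in SmoM2 and 6.76 ± 0.13 in wild type (SD, n = 3 each), with overlapping groups at the level of dim probe sets.

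Epyc encodes epiphycan, a dermatan sulphate proteoglycan best known from growth cartilage. Epyc had 9.52, 9.37 and 9.48 in the SmoM2 arrays, against 8.44, 8.33 and 8.29 in the wild type arrays. The arrays of each group lay within a narrow band, with SDs of 0.08 in SmoM2 and 0.08 in wild type, and the groups were far apart. The difference of 1.10 had an SE of 0.07 and ranked 5 from the top among the 19938 genes. The wild type values lay only a little above the dim level of 8.05 and below the medians of those arrays (8.59 to 8.60). Its promoter windows are shown because Epyc had the largest difference of the family. They cover 250 bases before to 50 after an annotated start site (RefSeq, GRCm38.p6, plus strand), at chr10:97643818-97644117 for the first and chr10:97646853-97647152 for the second, and capitals mark motif matches:
Epyc, first start site: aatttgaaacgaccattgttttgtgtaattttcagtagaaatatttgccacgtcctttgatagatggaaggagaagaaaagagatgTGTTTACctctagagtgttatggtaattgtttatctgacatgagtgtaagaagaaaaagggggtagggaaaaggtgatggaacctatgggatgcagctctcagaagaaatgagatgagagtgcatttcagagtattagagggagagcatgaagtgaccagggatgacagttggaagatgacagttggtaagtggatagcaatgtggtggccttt
Epyc, second start site: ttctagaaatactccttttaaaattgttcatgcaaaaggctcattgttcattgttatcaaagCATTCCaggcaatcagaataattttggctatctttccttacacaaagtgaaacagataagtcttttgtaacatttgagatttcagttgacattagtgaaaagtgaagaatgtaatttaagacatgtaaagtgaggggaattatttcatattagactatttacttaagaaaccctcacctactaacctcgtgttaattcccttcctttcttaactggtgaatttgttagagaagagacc

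Motifs were searched on both strands. For GLI factors, which transmit hedgehog signals, the letters were TGGGTGGTC. Forkhead factors were searched as TGTTTAC. For TEAD factors of the Hippo pathway they were GGAATG. AP-1 was searched as TGANTCA. The TATA element was read as TATAAA. An E-box was read as CAGCTG, and the CArG box of serum response factor was searched as well. The first Epyc window held 1 forkhead match, at position -164 from the start site, which 3.65% of 32851 such windows of mouse genes also held. The second held 1 TEAD match on the opposite strand, at position -188, which 14.7% of windows held. Windows were found for 8 of the 10 members, not for Dcn or Lum, and 0 of their 9 windows held the GLI letters, as 0.253% of all windows did. No AP-1 or CArG match was found in the 9 windows, against 7.81% and 1.63% of all. A match is a description of letters and says nothing of a factor's binding.

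In the chromosome 13 cluster, Ogn encodes osteoglycin, also called mimecan, a keratan sulphate proteoglycan of connective tissue. Ogn had 9.30, 9.22 and 9.74 in the SmoM2 arrays, against 8.77, 8.69 and 8.71 in the wild type arrays. The groups did not overlap, SmoM2 3 was well above the other two SmoM2 arrays, and the wild type arrays lay close together (SD 0.28 in SmoM2 and 0.04 in wild type). The difference was 0.70 with an SE of 0.12, and 0.54 without SmoM2 3. Omd encodes osteomodulin, of bone and dentin matrix, and averaged 6.03 ± 0.06 in SmoM2 and 5.99 ± 0.09 in wild type (SD, n = 3 each). Aspn encodes asporin, which binds collagen and TGF-beta, and averaged 6.01 ± 0.07 in SmoM2 and 5.94 ± 0.19 in wild type (SD, n = 3 each). Both had overlapping groups at the level of dim probe sets.

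The promoter windows of Ogn (chr13:49607765-49608064, plus strand) and of its neighbour Omd (chr13:49582212-49582511, plus strand) are set side by side because the first was higher in SmoM2 and the second was dim in both groups (RefSeq, GRCm38.p6, capitals mark motif matches):
Ogn: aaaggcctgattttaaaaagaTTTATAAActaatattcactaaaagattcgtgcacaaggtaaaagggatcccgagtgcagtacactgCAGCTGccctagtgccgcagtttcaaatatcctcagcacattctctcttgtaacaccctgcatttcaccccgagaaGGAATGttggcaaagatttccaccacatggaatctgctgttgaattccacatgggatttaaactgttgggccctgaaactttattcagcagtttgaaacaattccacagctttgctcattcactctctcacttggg
Omd: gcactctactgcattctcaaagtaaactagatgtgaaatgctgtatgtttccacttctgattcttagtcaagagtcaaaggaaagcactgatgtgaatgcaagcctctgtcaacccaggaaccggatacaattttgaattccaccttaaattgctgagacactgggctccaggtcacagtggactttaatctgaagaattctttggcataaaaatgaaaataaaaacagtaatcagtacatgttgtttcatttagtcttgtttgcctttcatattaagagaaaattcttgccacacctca

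The Ogn window held a TEAD match at position -86, an E-box at -162, and overlapping TATAAA matches on both strands at -229 and -227. These letters were found in 14.7%, 16.3% and 13.6% of all windows. The Omd window held 0 of the 7 motifs.

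Of the genes outside both clusters, Bgn encodes biglycan, a close relative of decorin. Bgn had 11.12, 11.10 and 11.13 in the SmoM2 arrays, against 11.03, 11.34 and 11.17 in the wild type arrays. The SmoM2 values lay inside the wild type range, and the difference was -0.06 (SE 0.08). Bgn lies on the X chromosome, and its lowest value was in wild type 1, the array with the lowest Xist signal. In the fit with a Y-linked covariate the difference was -0.11. Fmod encodes fibromodulin, which binds type I collagen. Fmod had 8.49, 8.61 and 8.74 in SmoM2, against 8.76, 8.89 and 8.86 in wild type. All SmoM2 values were lower than all wild type values, but the gap between SmoM2 3 and wild type 1 was small, the difference was -0.22 (SE 0.08), and Fmod was not past the threshold. Prelp encodes a proline- and arginine-rich protein that anchors basement membranes to collagen. Prelp averaged 8.48 ± 0.12 in SmoM2 and 8.45 ± 0.15 in wild type (SD, n = 3 each), with overlapping groups.

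**Figure D2:**
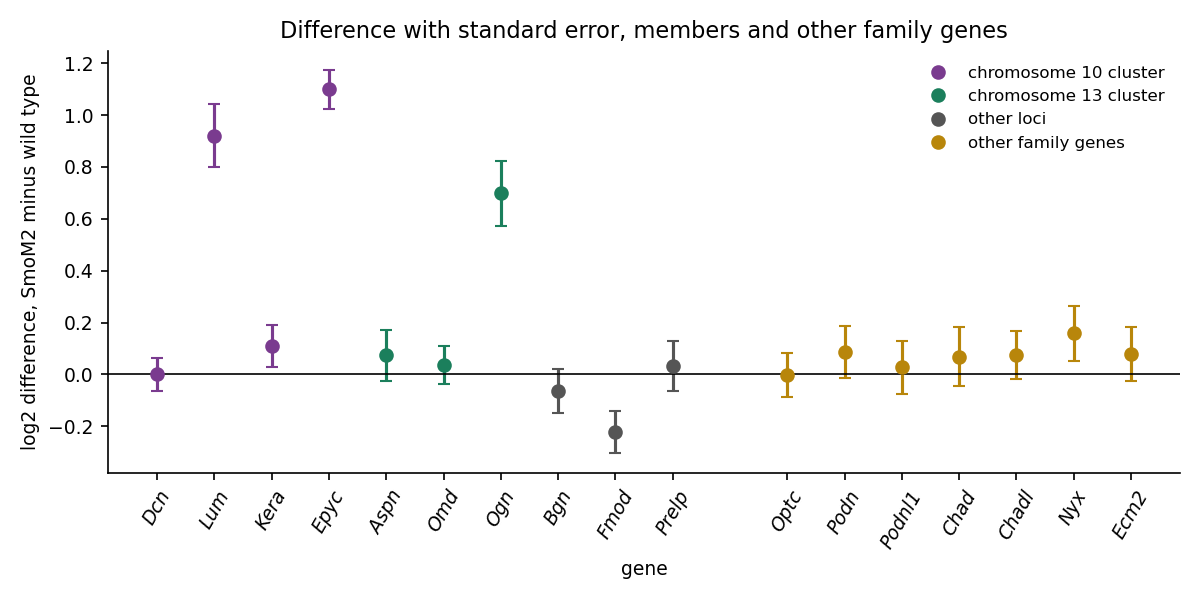
Log2 difference, SmoM2 minus wild type (vertical axis), with the standard error of the limma fit as bars, for the 10 genes and for 7 other genes of the family (horizontal axis). Epyc, Lum and Ogn lie between 0.70 and 1.10, Fmod at -0.22, and the other 7 genes of the family between -0.0015 and 0.16.

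Set by cluster, the 4 chromosome 10 genes had differences from 0.00 to 1.10 with a median of 0.52, and the 3 chromosome 13 genes from 0.04 to 0.70 with a median of 0.07. Bgn, Fmod and Prelp had differences from -0.22 to 0.03 with a median of -0.06, and the median over all genes was 0.0018. All 7 clustered genes had a positive sign, as did 10121 of all 19938 genes. Of the 7, 4 overlapped between groups, and 3 of these 4 were dim. The signs of Dcn (0.0008, SE 0.06) and Omd (0.04, SE 0.07) were not stable when the processing was changed. Dcn then ran from -0.01 to 0.04 and Omd from -0.07 to 0.09. Set by sequence class, Epyc and Ogn, the class III members, were both among the 3 higher genes, Lum was the 1 of 5 class II members, and the 3 class I members Dcn, Bgn and Aspn had differences from -0.06 to 0.07. Optc, a further class III gene of the family that codes for opticin of the eye, differed by -0.0015 (SE 0.08, adjusted p = 0.998), with a probe set below the dim level.

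The genes around the clusters were read in the order of the RefSeq gene table. Among the 4 genes on each side and those between members, 8 of 18 were measured, and 0 of the 8 passed the threshold in limma. At an unadjusted p under 0.05, 1 of the 8 did, against 10.5% of all genes. Of the 8, 4 lay below the dim level, namely Gm10754, Ccer1, Tes3-ps and Ecm2, so that both measured neighbours on chromosome 10 were dim. On chromosome 10 the measured neighbours were Gm10754, a noncoding gene after Epyc with a signal of 4.62 in SmoM2 and 4.43 in wild type and a difference of 0.20 (SE 0.07, adjusted p = 0.313), and Ccer1, a testis gene, at 0.04 (SE 0.08, adjusted p = 0.925). On the side of Dcn the nearest measured gene, chosen after the values were seen, was Btg1, an antiproliferative factor, with a difference of 0.12 (SE 0.06, adjusted p = 0.591). Btg1 lies beyond the 4 genes read on that side. Gm10754 and Btg1 had all SmoM2 arrays above all wild type arrays, as 5.64% of all genes had. On chromosome 13 Cenpp, a kinetochore gene, differed by 0.18 (SE 0.09, adjusted p = 0.524), and Nol8, a nucleolar gene next to Ogn, by 0.10 (SE 0.09, adjusted p = 0.789). Ecm2, itself of the leucine-rich repeat family, differed by 0.08, Iars by 0.13, Tes3-ps by 0.18 and Ippk by -0.02. The Iars probe set has a number far from those of the other chromosome 13 genes, and its locus was not checked.

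**Figure D3:**
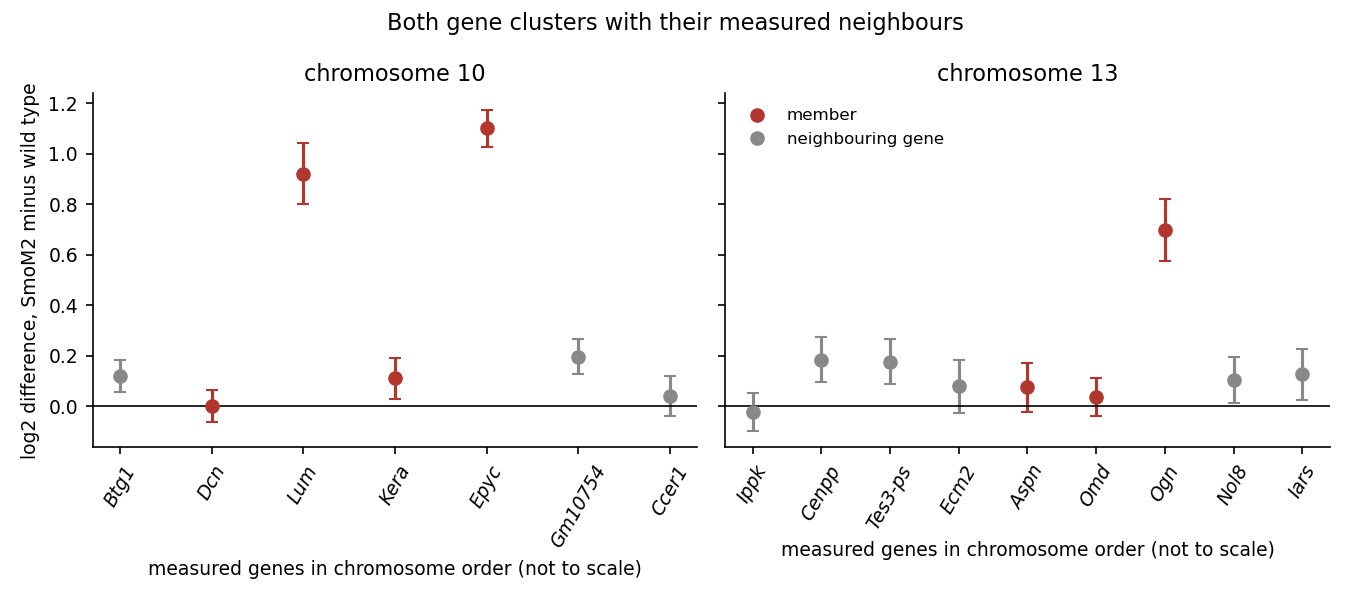
Log2 difference, SmoM2 minus wild type (vertical axis), with the standard error of the limma fit as bars, for the members (red) and their measured neighbours (grey) in chromosome order (horizontal axis, evenly spaced). Lum and Epyc on chromosome 10 and Ogn on chromosome 13 stand between 0.70 and 1.10, and the grey genes lie between -0.02 and 0.20. Btg1 lies beyond the 4 genes read on the side of Dcn.

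Of the 3 higher genes, Epyc moved least when the processing was changed. Its difference ran from 1.04 to 1.17 over 20 alternatives, and it stayed past the threshold in 20 of them. Lum ran from 0.79 to 1.19 and was past it in 18, the exceptions being the fit without SmoM2 3 and the fit with a Y-linked covariate. Ogn ran from 0.54 to 0.94 and was past it in 13 of 20, with the call lost without SmoM2 1, SmoM2 3, wild type 1 or wild type 2, without the pair SmoM2 1 and wild type 3, with the Y-linked covariate and with centring on the 75th percentile. No member other than these 3 was past the threshold in any of the alternatives that measured it. Fmod kept a negative difference throughout, from -0.29 to -0.08.

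**Figure D4:**
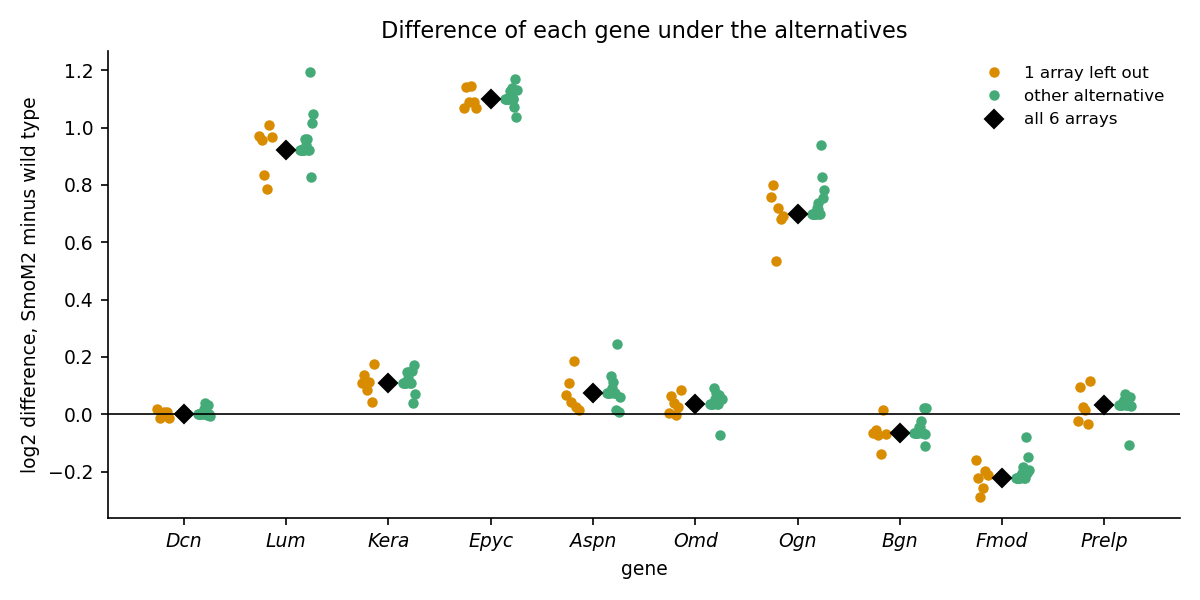
Log2 difference, SmoM2 minus wild type (vertical axis), of the 10 genes (horizontal axis) with all 6 arrays (black), with 1 array left out (orange) and under the other alternatives (green). Epyc stays between 1.04 and 1.17, Lum and Ogn spread more widely, and Dcn stays near 0.

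Other genes of the family held none past the threshold. They were listed with earlier results of these data known, so they are not an independent comparison. Of 8 listed, 7 were measured, 0 rose and 0 fell, and the median difference was 0.07. The largest difference was that of Nyx, the retinal nyctalopin, with 11.04, 10.62 and 10.76 in SmoM2, against 10.58, 10.71 and 10.67 in wild type (difference 0.16, SE 0.11, adjusted p = 0.692). Podn, which binds collagen, differed by 0.09, Chadl by 0.07, Chad, a cartilage protein, by 0.07, and Podnl1 by 0.03. In the 7 genes the groups overlapped, and Optc and Ecm2 lay below the dim level.

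The enzymes that build the sugar chains of these proteoglycans held no gene past the threshold. Of 7 genes for the linker to the core protein, 0 passed the threshold, with a median of -0.06. The largest difference was that of Pxylp1, a phosphatase that acts on the xylose of the linker, at 0.29 (SE 0.09, adjusted p = 0.252). Of 16 genes for chondroitin and dermatan sulphate 0 passed, with a median of 0.03. Chst15, a sulphotransferase of chondroitin sulphate, had 11.92, 11.98 and 11.97 in SmoM2, against 11.69, 11.73 and 11.77 in wild type, without overlap (difference 0.23, SE 0.06, adjusted p = 0.192). Of 11 genes for keratan sulphate and tyrosine sulphation 0 passed, with a median of 0.02 and B4galt1, a galactosyltransferase, at -0.10. Over all genes 0.983% passed, so lists of this size would hold few or no such genes at the background rate.

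Collagen chains are the ligands of these proteins. Of 16 fibril-forming, fibril-associated and type VI chains 1 fell, 0 rose and 15 did not pass, with a median of -0.07, and 6 had all SmoM2 arrays below all wild type arrays, against 10.1% of all genes. Col1a2, a chain of type I collagen, fell to 10.41, 10.46 and 10.40 in SmoM2, against 10.94, 10.88 and 10.77 in wild type (difference -0.44, SE 0.07, adjusted p = 0.0241). Col1a1, the partner chain, named after its values were seen, had 10.35, 10.31 and 10.36 in SmoM2, against 10.68, 10.70 and 10.63 in wild type, and an adjusted p of 0.0508. Col3a1, a fibril chain of soft tissue and also named after its values were seen, differed by 0.05. The call for Col1a2 was lost in 7 of the 20 alternatives, among them the fits without SmoM2 1, SmoM2 3, wild type 1 or wild type 2, with an adjusted p from 0.0712 to 0.147 in those 4. Of 14 genes for collagen processing 0 passed (median -0.09), with the cross-linking enzyme Loxl1 at -0.26 (SE 0.09, adjusted p = 0.321). Of the 14, 1 had all SmoM2 arrays above all wild type arrays and 5 had all below, against 5.64% and 10.1% of all genes. Of 11 genes of elastic fibres 0 passed (median -0.09), with the fibrillin Fbn2 at -0.48 (SE 0.15, adjusted p = 0.259). Here 0 had all SmoM2 arrays above and 2 had all below.

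The growth factor and receptor lists that touch these proteoglycans held no gene past the threshold. Of 13 genes of the TGF-beta pathway 0 passed, with a median of -0.06. Of the 13, 3 had all SmoM2 arrays above all wild type arrays and 6 had all below, against 5.64% and 10.1% of all genes. Tgfb2, a ligand that decorin binds, had 10.85, 11.17 and 11.14 in SmoM2, against 11.52, 11.46 and 11.36 in wild type (difference -0.39, SE 0.10, adjusted p = 0.118). Of 8 surface proteins reported to bind decorin or biglycan 0 passed, with a median of -0.25. By the same measure 0 of these 8 were above and 4 below. Lrp1, an endocytic receptor of decorin, had 9.78, 10.02 and 9.81 in SmoM2, against 10.47, 10.84 and 10.29 in wild type (difference -0.67, SE 0.13, adjusted p = 0.0539). Of 8 proteases reported to cleave the family 0 passed, with Bmp1, which trims procollagen and the biglycan precursor, at -0.20 (SE 0.07, adjusted p = 0.32). Among the proteases 0 had all SmoM2 arrays above and 2 had all below.

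Of 25 other proteoglycans and link proteins 1 rose, 0 fell and 24 did not pass, with a median of 0.0014. Hapln3, a link protein that ties hyaluronan to large proteoglycans, rose to 9.33, 9.36 and 9.44 in SmoM2, against 8.64, 8.80 and 8.82 in wild type (difference 0.62, SE 0.07, adjusted p = 0.00734). Its call was lost without SmoM2 3 (adjusted p = 0.0675) and with the Y-linked covariate (adjusted p = 0.157), at differences of 0.59 and 0.57. Sdc2, a cell surface heparan sulphate proteoglycan named after its values were seen, had 11.30, 11.45 and 11.55 in SmoM2, against 10.92, 11.07 and 11.03 in wild type, and an adjusted p of 0.0544. Of the 25, 3 had all SmoM2 arrays above all wild type arrays and 8 had all below, against 5.64% and 10.1% of all genes. Among the 8 were Hspg2 at -0.39 (adjusted p = 0.154) and Agrn at -0.37 (adjusted p = 0.172), also named after their values were seen.

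**Figure D5:**
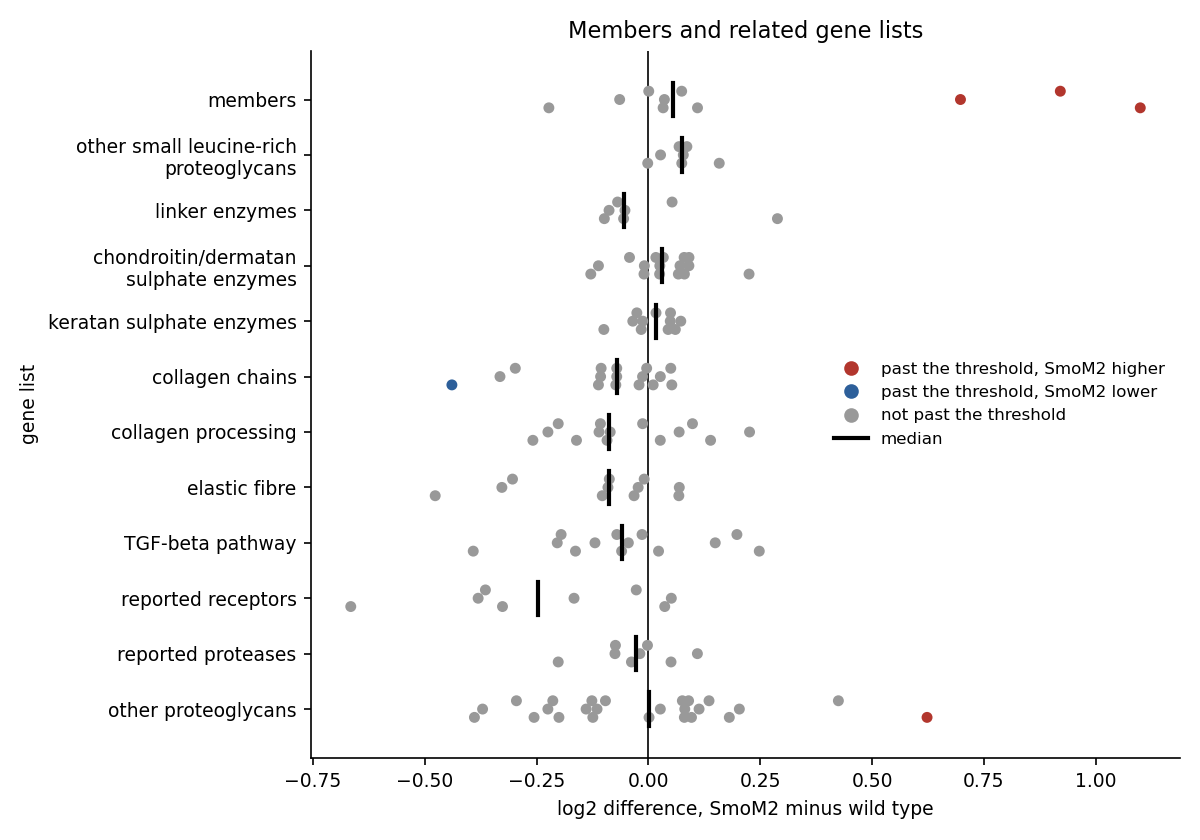
Log2 difference, SmoM2 minus wild type (horizontal axis), of each gene of the 10 members and of 11 related gene lists (vertical axis), coloured by whether it passed the limma threshold, with the median of each list as a black bar. The 3 coloured members lie at 0.70 or above, and the other coloured genes are Hapln3 on the right and Col1a2 on the left.

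Markers of other cell types in which these proteoglycans are made did not pass the threshold. Of 12 cartilage markers 0 passed (median 0.04), and their mean level ran from 8.88 to 9.02 in the SmoM2 arrays, against 8.83 to 9.03 in the wild type arrays, with Acan, Matn1 and Matn3 below the dim level. Sox9, a cartilage regulator also used in the gut, differed by -0.21 (adjusted p = 0.36). Of 4 tendon markers 0 passed (median 0.05), with mean levels from 8.47 to 8.56 in SmoM2, against 8.41 to 8.55 in wild type, Tnmd below the dim level, and Mkx, a tendon homeobox gene, at 0.19 (adjusted p = 0.407). Of 10 fibroblast markers 0 passed (median 0.0097), 6 with a positive difference and 4 with a negative one, with mean levels from 8.94 to 9.02 in SmoM2, against 8.93 to 9.04 in wild type, Dpt, Pi16 and Fap below the dim level, and the largest difference, of Dpp4, at -0.37 (adjusted p = 0.182). Clec3b was at 0.25 (adjusted p = 0.516) and Thy1 at 0.17 (adjusted p = 0.641), both named after their values were seen.

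Markers of other cell types differed between the groups beside the 3 higher proteoglycans. Of 10 smooth muscle markers 4 rose and 1 fell (median 0.35), and their mean level ran from 10.22 to 10.39 in SmoM2, against 9.95 to 10.0003 in wild type, with 0 below the dim level. The marker that fell was Des, which encodes desmin and is named after its values were seen, by 0.54 (adjusted p = 0.0263). Myocd, the coactivator of smooth muscle genes, rose by 0.86 (adjusted p = 0.00111), Synpo2, an actin-bundling protein, by 0.59 (adjusted p = 0.0142), and Actg2, the enteric smooth muscle actin, had 11.02, 10.88 and 11.40 in SmoM2, against 10.29, 10.46 and 10.49 in wild type (adjusted p = 0.0405). Of 8 epithelial markers 6 fell (median -0.56), and their mean level ran from 9.93 to 10.05 in SmoM2, against 10.44 to 10.54 in wild type, with Esrp1, an epithelial splicing factor, at -0.68 (adjusted p = 0.0245). Cldn6, a tight junction protein, was at -0.66 (adjusted p = 0.0121) and Cdh1, E-cadherin, at -0.58 (adjusted p = 0.0111). Of 9 mesothelial markers, with a median of -0.24, 2 fell, Bnc1 by 0.72 and Wt1 by 0.52, with mean levels from 9.18 to 9.32 in SmoM2, against 9.46 to 9.54 in wild type and Muc16 below the dim level. The 7 endothelial and 7 leukocyte markers had 0 past the threshold (medians -0.14 and -0.22), with mean levels from 10.64 to 10.79 and from 8.39 to 8.55 in SmoM2, against 10.90 to 10.93 and 8.70 to 8.81 in wild type. The largest differences there were those of the receptor Kdr, at -0.36 (adjusted p = 0.101), and the chemokine Pf4, at -0.48 (adjusted p = 0.205), and Aif1 lay below the dim level. Of 8 genes of the embryonic stomach, Foxf1 of the mesenchyme rose by 0.37 (adjusted p = 0.0366), and all 8 lay above the dim level. The median of the 8 was -0.24, and 4 had all SmoM2 arrays below all wild type arrays without passing the threshold: Nr2f2 at -0.44 (adjusted p = 0.0535), Gata4 at -0.36 (adjusted p = 0.0532), Sox2 at -0.38 (adjusted p = 0.276) and Isl1 at -0.37 (adjusted p = 0.143), named after their values were seen. The mean level of the 8 ran from 11.07 to 11.27 in SmoM2, against 11.26 to 11.41 in wild type. The part of these shifts in the levels of Epyc, Lum and Ogn was not tested.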

How the data were processed

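RNA from 6 mouse embryonic stomach samples, 3 SmoM2 and 3 wild type by their labels, was measured on 1 array each. The deposited values are log2 signals made by RMA with affy, per the submitters' processing notes; the sources used here give no versions and no further step. Their number, 3 a group, limits the precision. Probe sets (35556) were named from the platform's annotation: 21789 had 1 symbol, 1621 several and 12146 none. Each of 19938 genes was read from its probe set with the highest mean. Groups were compared with limma 3.58.1 in R 4.3.3 (lmFit, eBayes, Benjamini-Hochberg over all genes, threshold 0.05), checked on simulated data. An exact permutation test of 3 against 3 arrays cannot go below p = 0.1. The labels do not say that samples came from separate litters or cultures, so p-values reflect only the spread among these arrays. The labels do not say that replicate numbers pair the samples, and the main fit has no pairing. Same-number correlations of deviations were -0.10, 0.52 and 0.06. Deviations from a mean of 3 arrays are tied to each other, so these values cannot decide whether the numbers pair the samples.

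The members and gene lists were chosen with earlier results of these data known. From each list up to 3 genes past the threshold with the largest differences are named, or else the 1 with the largest difference, with all members, family genes, cluster neighbours, Hhip, Ptch1, Gli1 and sex-linked genes; others are said to be named after their values were seen. Alternatives were 18 planned and 2 chosen after seeing the data, which each leave out a pair of arrays that deviated together. Promoter windows came from RefSeq (GRCm38.p6); the array files name no build. Ddx3y and Tsku were not analysed here.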

Additional observations from a re-analysis of the deposited data

How the results depend on the processing

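The 196 genes past the threshold became 698 with the replicate block, 120 with centring on the 75th percentile, 336 with an intensity trend, 4110 with array weights (whose estimation did not converge), 22 with the Y-linked covariate, and 129 without the pair SmoM2 2 and wild type 2. Leaving out 1 array gave 32 to 247, with 80 without SmoM2 1, 32 without SmoM2 3, 51 without wild type 1 and 62 without wild type 2. The members past the threshold numbered 1 with the Y-linked covariate and 1 to 3 with 1 array left out, against 3. The lists of related genes, Hhip, Ptch1 and Gli1 included, held 16 such genes with the replicate block, 9 among genes above the median signal, 11 with the trend, 41 with array weights, 1 with the Y-linked covariate and 1 to 5 with 1 array left out, against 4. The median difference of both clusters was 0.25 with the Y-linked covariate and 0.04 to 0.18 with 1 array left out, against 0.11. That of Bgn, Fmod and Prelp was 0.021 with array weights, 0.022 without the pair SmoM2 2 and wild type 2, and -0.139 to -0.0344 with 1 array left out, against -0.06. Neighbours past the threshold numbered 4 with array weights, and 0 to 0 with 1 array left out. The causes were not tested. Kera, Omd, Aspn and Prelp have no value among genes above the median signal.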

Other observations

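The genes whose pattern over the 6 arrays was most like that of Lum were Bmp4, a secreted growth factor (Pearson r = 0.998), Cnn2, a calponin (0.995), and Fhdc1 (0.991). For Epyc they were Cenpv (0.998), Jdp2 (0.995) and Sostdc1, a secreted antagonist of BMP and Wnt ligands (0.994). For Ogn they were Mir146 (0.994), whose mean signal of 4.91 in SmoM2 and 4.73 in wild type lay below the dim level, Gnai1, a G protein subunit (0.993), and Myl6, a myosin light chain (0.991). These values include the difference between the groups, and the genes share arrays and normalization.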
